A study of Mus musculus with 10 samples.

Results

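The genes described are the matrix metalloproteinases (Mmp), the secreted metalloproteinases with thrombospondin repeats (ADAMTS) and the tissue inhibitors of metalloproteinases (TIMPs). They were chosen by symbol alone, as every line of the gene table named Mmp, Adamts or Timp followed by a number, with a closing a or b allowed for Mmp. This gave 45 genes of 21612, namely 22 Mmp, 19 Adamts and 4 Timp genes. Of these, 1 (Mmp7) had no read in any library, and 34 reached a normalised count of at least 10 in at least 2 libraries and were tested.

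Messenger RNA was sequenced from 10 libraries of wild-type C57BL/6J mouse cortical endothelial cells (ECs). These cells line brain vessels and carry the blood-brain barrier (BBB). The groups were E13.5 (cells of embryonic cortex at that day, n = 3), untreated adult control (n = 3), adult ECs given Wnt3a, labelled as 200 nM (n = 2), and adult ECs given MS-275 at 10 µM (n = 2). For Wnt3a, the methods give the dose as a mass per volume, so its unit is uncertain. Wnt3a is a secreted protein that activates β-catenin signalling, and MS-275 inhibits class I histone deacetylases. The methods describe adult males, cortices pooled after the meninges were removed, cells grown on collagen in EC medium over a limited number of passages, and ECs of 1 litter pooled as a replicate, so every value is of cultured cells from pooled animals. Values are normalised counts, that is gene counts divided by a size factor of each library, given in the order of the replicate numbers or as mean ± SD. A difference was called when limma on log2(normalised count + 1), fitted to all tested genes, gave an adjusted p below 0.05 with a log2 difference of more than 0.2 in size. The p-values measure the spread between the libraries of a group as labelled, and these libraries were not equally alike.

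Libraries held 21116014 to 31733768 reads on genes. Adult control 3 was closer to Wnt3a 2 (correlation of log2 values 0.990) than to adult control 1 (0.962) or 2 (0.958), so results on adult cells are also given without them where a call changes. Adult control 1 and 2 correlated at 0.993. E13.5 2 and 3 correlated at 0.992, above their values with E13.5 1 (0.968 and 0.965). All are labelled as biological replicates, and their independence was not tested. If such close libraries are not independent, the p-values are too small. The E13.5 libraries carry an EC label with few endothelial transcripts. The summed level of 12 endothelial markers (Pecam1, Cdh5 and others) was 1702 to 2223 at E13.5, 248225 to 330249 in adult control, 189409 to 244990.3 with Wnt3a and 26322 to 34746 with MS-275. Markers of pericytes and smooth muscle summed to 32893 to 51707 at E13.5 and 85.0 to 116 in adult control, and those of fibroblasts to 8537 to 22491 and 158 to 260.3. Those of astrocytes and radial glia summed to 36183 to 47988 and 3820 to 5184, with Aqp4, Slc1a3, Fabp7 and Ptprz1 at 0 in adult control. Nearly all of that adult sum was Gja1, at 4702.5 ± 771. Neuron and neural progenitor markers summed to 21653 to 32325 at E13.5 and 1832 to 4837 in adult control, where Nes stood at 3776 ± 1692. The part of cell make-up in the results below was not tested. In bulk samples, fewer cells of a type and less RNA per cell cannot be told apart.

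Mmp enzymes are zinc proteases that cut collagens, laminins and other matrix proteins, and most are secreted as inactive forms that must be cleaved. Membrane-type Mmp enzymes are held at the cell surface and also activate other Mmp enzymes. ADAMTS enzymes are secreted and fall into clades with known substrates, among them the large chondroitin sulphate proteoglycans, the ends of procollagens and proteins of fibrillin microfibrils. The 4 TIMPs bind and block these enzymes, Timp3 being the matrix-bound member that also blocks ADAMTS proteases. At brain vessels, proteolysis of the basement membrane and of junction proteins is known to accompany vessel growth and BBB opening.

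Of the 22 Mmp genes, 9 lie side by side on chromosome 9 (mm10, chr9:7272514-7699585, a stretch of 427.1 kb), in the order Mmp13, Mmp12, Mmp1b, Mmp3, Mmp10, Mmp8, Mmp27, Mmp20 and Mmp7. Because neighbours of this cluster differed in level between the groups, the 150 bases before the RefSeq start of its measured genes are shown, with those of Adamts1, the most abundant protease of the set per kb in adult control. Sequences are from RefSeq on GRCm38.p6 (mm10), read 5′ to 3′ on the strand of the gene, and capitals mark TGAGTCA on either strand (TGACTCA when read on the other) and TATAAA. For Mmp12, which has a pair of RefSeq starts, the window of the downstream start is shown, since the upstream one holds neither motif.
Mmp13, chr9:7272364-7272513, plus strand: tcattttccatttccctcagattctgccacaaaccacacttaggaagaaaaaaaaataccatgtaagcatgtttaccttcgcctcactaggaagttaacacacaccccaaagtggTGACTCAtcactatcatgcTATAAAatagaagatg
Mmp12, chr9:7347224-7347373, plus strand: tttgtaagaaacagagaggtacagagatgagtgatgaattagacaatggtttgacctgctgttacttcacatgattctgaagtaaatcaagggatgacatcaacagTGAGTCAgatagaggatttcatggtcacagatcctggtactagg
Mmp1b, chr9:7388027-7388176, minus strand: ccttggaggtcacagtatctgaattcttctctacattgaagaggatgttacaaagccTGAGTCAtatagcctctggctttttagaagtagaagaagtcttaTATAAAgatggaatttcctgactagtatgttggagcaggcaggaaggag
Mmp3, chr9:7445672-7445821, plus strand: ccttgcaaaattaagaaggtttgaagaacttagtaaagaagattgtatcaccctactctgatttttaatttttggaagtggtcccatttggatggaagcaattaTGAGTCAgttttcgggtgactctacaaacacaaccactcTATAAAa
Mmp10, chr9:7502192-7502341, plus strand: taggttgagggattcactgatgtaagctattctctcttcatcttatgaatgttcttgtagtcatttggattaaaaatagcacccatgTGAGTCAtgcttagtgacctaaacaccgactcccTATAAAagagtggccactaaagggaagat
Adamts1, chr16:85803114-85803263, minus strand: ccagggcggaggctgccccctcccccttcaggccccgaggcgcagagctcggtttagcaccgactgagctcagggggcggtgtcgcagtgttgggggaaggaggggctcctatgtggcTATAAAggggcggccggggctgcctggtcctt

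TGAGTCA is the letter pattern known to be bound by AP-1 (Fos and Jun) factors, and TATAAA is the letter pattern of the TATA box. A promoter was matched by symbol for 31 of the 45 genes. In the 250 bases before a start, TGAGTCA on either strand was found for 6 of the 31 (Mmp13, Mmp12, Mmp1b, Mmp3, Mmp10 and Mmp7), against 5.16% of 27025 genes. All 6 belong to the chromosome 9 cluster. TATAAA on the sense strand in the 50 bases before a start was found for 6 of the 31 (Mmp13, Mmp1b, Mmp3, Mmp10, Mmp7 and Adamts1), against 3.15% of all genes. The first base of TATAAA lay 7 bases before the start for Mmp3, 16 for Mmp13 and 26 for Mmp7. It lay 29 bases before the start for Mmp10, 32 for Adamts1 and 49 for Mmp1b. These matches describe letters in the windows and were not tested for binding or for use as a TATA box.

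Adult control was set against E13.5, the group labelled as cortical ECs of that embryonic day. The paper proposes that ECs of this day express genes that serve BBB formation. The E13.5 libraries held few endothelial transcripts, with Pecam1 at 59.4 ± 12.9 against 71699 ± 11642 in adult control. A difference here therefore cannot be assigned to the age of ECs rather than to cell make-up. In adult control, the proteoglycan-cleaving proteases Adamts1, Adamts4, Adamts5 and Adamts9 were higher, as were Mmp3, Mmp24 and Timp3. The procollagen N-proteinases Adamts2, Adamts3 and Adamts14, both gelatinases (Mmp2 and Mmp9) and Timp4 were lower in adult control. Of the 34 tested genes, 22 were called, against 49.1% of all 15211 genes tested. Of these, 7 were higher (17.9% of all genes) and 15 lower (31.2%). Levels did not overlap between the groups for 25 of the 34 (62.5% of all genes). Adamts2, Adamts3, Adamts8, Adamts14, Adamts15 and Mmp16 reached a count of 10 in no library outside E13.5. Mmp9 and Mmp23 reached it in a single library outside E13.5. These genes were tested only because of their E13.5 level, which favours a lower call, so the counts and median lend no separate weight to that direction. The same filter applied to all genes. By family, 2 Mmp genes were higher and 8 lower of 16, 4 Adamts genes higher and 6 lower of 14, and 1 Timp gene higher and 1 lower of 4. The median log2 difference of the 34 was -0.97, beside -0.20 over all genes. Under quantile normalisation the all-gene median was 0.12, and 8 of the genes were called higher and 10 lower, while the higher share of all calls went from 36.5% to 55.7%.

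The comparison of MS-275 with adult control addressed what inhibition of class I histone deacetylases does to adult ECs. With MS-275, the 4 proteoglycan-cleaving proteases that were abundant in adult control fell, and so did the membrane-type Mmp14 and Mmp15, while Mmp17 rose from 35 reads over the 3 controls, Mmp13 from 9 and Mmp12 and Mmp1b from none. Of the 34 genes, 18 were called, against 39.1% of all genes tested. Of these, 8 were higher (21.8% of all genes) and 10 lower (17.4%). Levels did not overlap for 20 of the 34 (57.3% of all genes). Mmp1b reached a count of 10 only in the MS-275 libraries and E13.5 1, so it was tested because of its MS-275 level. The 8 higher genes were all Mmp genes, and of 16 Mmp genes 3 were lower. Of 14 Adamts genes 0 were higher and 6 lower, and of 4 Timp genes 0 were higher and 1 lower. The median log2 difference was 1.29 over the Mmp genes and -0.85 over the Adamts genes, beside 0.15 over all genes. Endothelial markers moved with these calls, 11 of 12 being lower with MS-275. Markers of pericytes and smooth muscle were higher for 4 of 8 tested and lower for 0, and those of fibroblasts for 4 and 0 of 9. Neuron and progenitor markers were higher for 4 and lower for 0 of 10, and those of astrocytes and radial glia for 3 and 1 of 8. Pericyte and smooth muscle markers summed to 708 to 950 with MS-275, and fibroblast markers to 930 to 1322. The part of cell make-up in the result was not tested.

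The comparison of Wnt3a with adult control addressed whether a Wnt ligand alters transcripts of adult ECs. None of the 34 genes was called, and by limma 0 of 15211 genes were called (0% of all genes). At an unadjusted p under 0.05, limma gave 6 of the 34 genes and 916 of all genes, and edgeR and DESeq2 also called 0 genes after adjustment. Levels did not overlap for 6 of the 34 (Mmp12, Mmp1b, Mmp23, Adamts1, Adamts9 and Adamts10), against 16% of all genes. Both comparisons of treated cells and the comparison with E13.5 share the same 3 control libraries, so their differences are not independent.

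**Figure D1:**
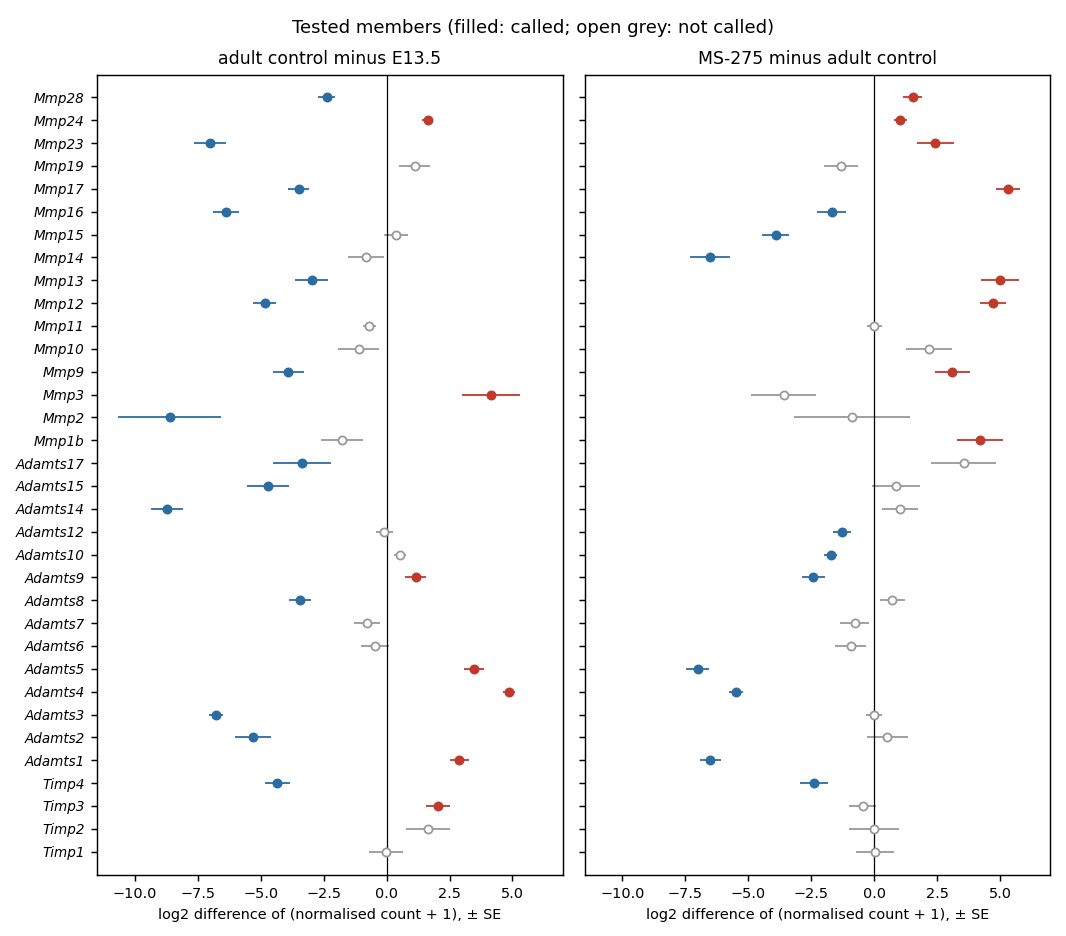
Log2 differences (points) with their standard errors (lines) of the 34 tested genes, for adult control minus E13.5 (left) and MS-275 minus adult control (right), on the log2(normalised count + 1) scale. Filled red points are genes called higher (7 left, 8 right), filled blue points genes called lower (15 left, 10 right) and open grey points genes not called.

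By mean normalised count, the most abundant proteases of adult control belonged to the proteoglycan-cleaving clade. Adamts1 (chr16:85793827-85803113), which cuts versican and aggrecan and is known to restrain vessel growth, stood at 46124, 49173 and 45888 in adult control. It stood at 7751, 5774 and 5716 at E13.5, at 28283 and 42879 with Wnt3a, and at 904 and 292 with MS-275. All adult control libraries were above all others, and both MS-275 libraries were below all others. Adamts1 was 7.34-fold higher in adult control than at E13.5 (log2 difference 2.89 ± 0.37 SE, adjusted p = 0.000206). With MS-275 it was 78.7-fold lower than in control (log2 difference -6.51 ± 0.41, adjusted p = 6.11e-05), and the log2 difference was -7.33 without MS-275 1 and -5.70 without MS-275 2.

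Adamts5, an aggrecanase, lies 53.06 kb from Adamts1 on the same strand of chromosome 16 (chr16:85856173-85901828). It stood at 10373, 10059 and 14859 in adult control, at 1372, 880.1 and 928 at E13.5, at 4182 and 11182 with Wnt3a and at 59.7 and 131 with MS-275. As for its neighbour, control libraries lay above those of E13.5 and MS-275, and E13.5 lay above MS-275. It was 11.1-fold higher in adult control than at E13.5 (log2 difference 3.48 ± 0.41, adjusted p = 0.000123) and 123.3-fold lower with MS-275 than in control (-7.01 ± 0.46, adjusted p = 6.32e-05). The MS-275 fall of Adamts5 was the largest on the log2 scale among the 34 genes.

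Adamts4, also an aggrecanase, stood at 11142, 12766 and 6816 in adult control, at 384, 300.0 and 349 at E13.5, at 9336 and 7726 with Wnt3a and at 223 and 214 with MS-275. Both MS-275 libraries lay below those of E13.5, which lay far below control, and the Wnt3a libraries lay within the control range. Adamts4 was 29.7-fold higher in adult control than at E13.5 (log2 difference 4.85 ± 0.23, adjusted p = 5.86e-07) and 46.8-fold lower with MS-275 (-5.49 ± 0.26, adjusted p = 5.66e-05).

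Adamts9, which cuts versican, stood at 4759, 5474 and 2702 in adult control, at 2195, 1644 and 1762 at E13.5, at 824 and 2517 with Wnt3a and at 645 and 917 with MS-275. The gap between adult and embryonic levels was small beside those of the 3 genes above, and adult control 3 lay nearest to E13.5. It was 2.31-fold higher in adult control than at E13.5 (log2 difference 1.16 ± 0.41, adjusted p = 0.045), a call lost with no filter on low values (adjusted p = 0.0504) and on leaving out adult control 1, adult control 2 or any E13.5 library (adjusted p from 0.0743 to 0.14). With MS-275 it was 5.52-fold lower (-2.42 ± 0.46, adjusted p = 0.00385). The other members of the clade were scarce. Adamts8 had no read in adult control and 6.68 to 13.9 at E13.5, at least 10.8-fold lower in adults (adjusted p = 0.000185), and Adamts15 stood at 0, 0 and 1.97 in control and 66.0, 22.5 and 32.4 at E13.5 (adjusted p = 0.0016). Neither call of this pair, whose genes lie 20.11 kb apart on chromosome 9, held under quantile normalisation (adjusted p = 0.697 for Adamts8 and 0.115 for Adamts15), and DESeq2 also left Adamts8 uncalled (adjusted p = 0.0541). Adamts20 did not pass the filter, at 5.73 to 6.94 at E13.5 and 0 in the 7 adult libraries.

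**Figure D2:**
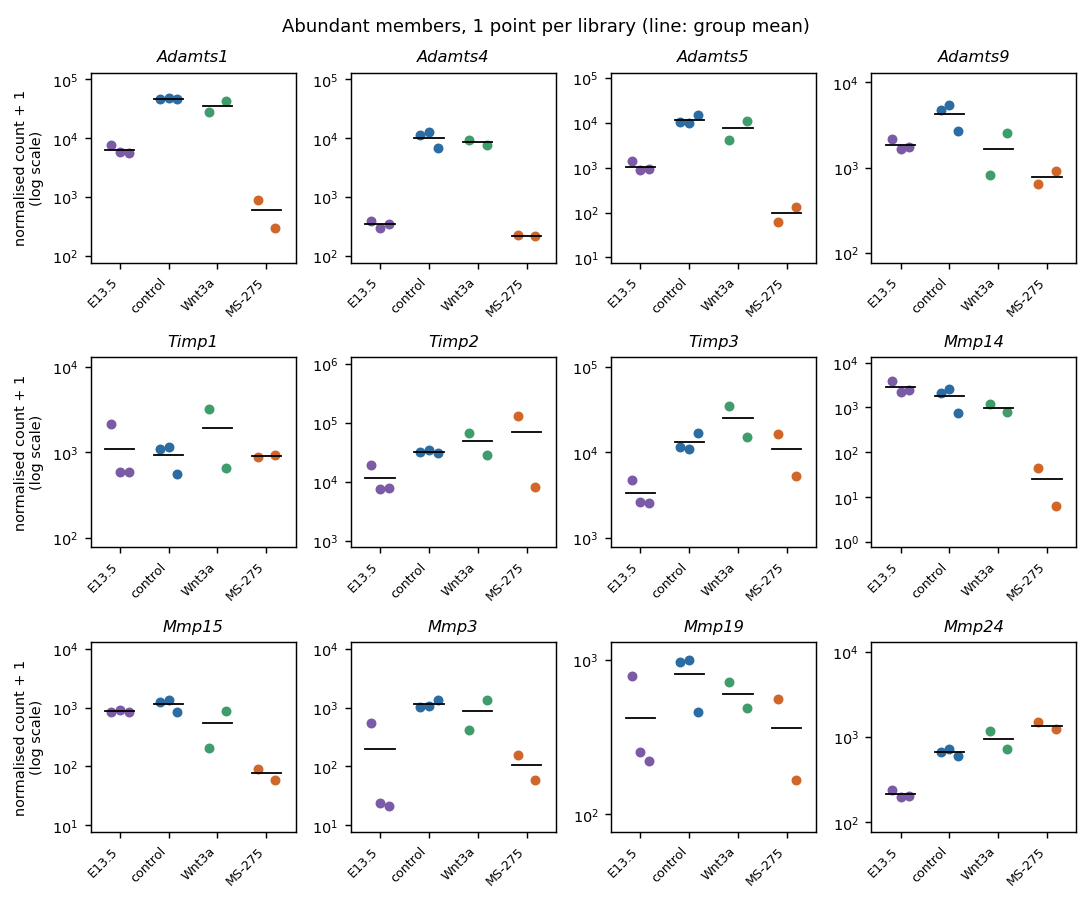
Normalised counts plus 1 on a log axis of 12 abundant genes, with 1 point per library in the E13.5 (n = 3), adult control (n = 3), Wnt3a (n = 2) and MS-275 (n = 2) groups and a line at each group mean. The 3 adult control points of Adamts1 lie between 45888 and 49173 and its MS-275 points at 904 and 292, while the MS-275 points of Timp2 lie at 130573 and 8116.

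All 3 procollagen N-proteinases, which remove the amino-terminal propeptide of fibrillar procollagens, were near absent in adult cells. Adamts14 stood at 884, 499 and 512 at E13.5 and at 0, 2.03 and 0 in adult control, with 2.78 and 0 in Wnt3a and 1.71 and 2.19 in MS-275 libraries. Each E13.5 library was far above every adult library (log2 difference -8.72 ± 0.63, adjusted p = 5.52e-06). Adamts3, which also takes part in the maturation of the lymphatic growth factor Vegfc, stood at 103, 110.1 and 113 at E13.5 and had no read in any of the 7 adult libraries. It was at least 114-fold lower in adult control (adjusted p = 3.21e-07), against a floor of 3 reads over the group. Adamts2 stood at 120.0, 34.7 and 41.0 at E13.5 and at 0, 0 and 1.97 in adult control (adjusted p = 0.000289). None of the 3 was called with MS-275, where Adamts2 and Adamts14 held 3 and 4 reads in all. Fibroblast markers were also lower in adult control (8 lower and 0 higher of 9 tested), but this was not particular to them. Markers of pericytes and smooth muscle (8 of 8), neurons and progenitors (10 of 10) and astrocytes and radial glia (8 of 8) were lower too. The part of any of these cells in the 3 calls was not tested.

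**Figure D3:**
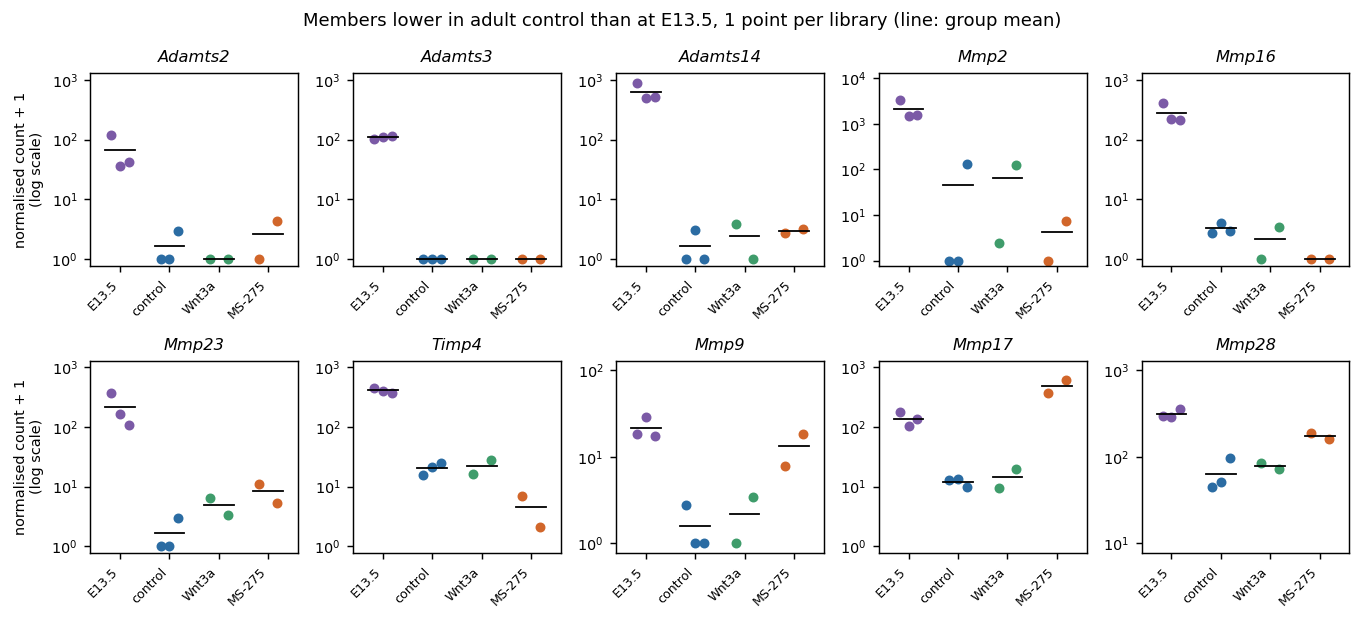
Normalised counts plus 1 on a log axis of 10 genes called lower in adult control than at E13.5, with 1 point per library and a line at each group mean. The 7 adult libraries of Adamts3 lie at a count of 0, and the MS-275 points of Mmp17 (366 and 618) lie above its E13.5 points (101.4 to 174).

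The ADAMTS linked to cartilage oligomeric matrix protein (Adamts7 and Adamts12) and to fibrillin (Adamts6 and Adamts10) gave 0 calls of 4 by limma between adult control and E13.5, with 1 (Adamts10) at an unadjusted p under 0.05. Adamts10 was called higher in adults with edgeR (adjusted p = 0.0453), DESeq2 (0.0473) and quantile normalisation (0.00684) and without E13.5 1 (0.0359). Adamts7 stood at 424, 522 and 127 in control, 622, 494 and 462 at E13.5, 214 and 121 with Wnt3a and 215 and 148 with MS-275. Adult control 3 was again the library apart within its group. Adamts10 stood at 439, 492 and 456 in control, at 399.7, 302 and 263 at E13.5, at 315 and 423 with Wnt3a and at 138 and 139.9 with MS-275, and was 3.32-fold lower with MS-275 than in control (log2 difference -1.72 ± 0.26, adjusted p = 0.00125). Adamts12 stood at 232, 242 and 309 in control, at 439, 205 and 229 at E13.5, at 300.1 and 361 with Wnt3a and at 97.2 and 116 with MS-275. It was 2.45-fold lower with MS-275 (-1.28 ± 0.36, adjusted p = 0.0218), a call lost without MS-275 1 (adjusted p = 0.0896) or MS-275 2 (0.065). Adamts7 was called with MS-275 only when adult control 3 was left out (-1.40, adjusted p = 0.0134). Adamts6 ran from 81.0 in MS-275 1 to 431 in Wnt3a 1 and was called in no comparison.

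Adamts17, whose human counterpart is linked to a fibrillin disorder, stood at 0, 0 and 13.8 in adult control and 14.3, 24.3 and 40.1 at E13.5. The groups did not overlap, but 1 control library came close to the lowest embryonic one. It was called lower in adults (log2 difference -3.36 ± 1.15, adjusted p = 0.0378), and this call was lost with edgeR (0.182), DESeq2 (0.206) and quantile normalisation (0.886) and without adult control 1 or 2 or any 1 E13.5 library (adjusted p from 0.0631 to 0.127). Without adult control 3 the log2 difference was -4.65. With MS-275 it stood at 13.6 and 55.7 and was not called (adjusted p = 0.0555), or was called higher without adult control 3 (4.85, adjusted p = 0.00545) and with a pseudocount of 10 (adjusted p = 0.0483).

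The inhibitors were led by Timp2, which blocks most Mmp enzymes and also takes part with Mmp14 in the activation of Mmp2. It stood at 32574, 34597 and 30869 in adult control, 18921, 7655 and 7824 at E13.5, 68486 and 28926 with Wnt3a, and 130573 and 8116 with MS-275. The MS-275 libraries lay on either side of every other adult library. Neither contrast was called (adjusted p = 0.153 between adult control and E13.5 and 1 with MS-275). With MS-275 the log2 difference was 2.00 when MS-275 2 was left out (adjusted p = 0.0555) and -2.01 when MS-275 1 was left out (adjusted p = 0.0401), so its direction rests on which library is kept. A fit of adult control and E13.5 alone called Timp2 higher in adults (adjusted p = 0.0105).

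Timp3, the matrix-bound inhibitor, stood at 11673, 11038 and 16830.4 in adult control, 4803, 2584 and 2533 at E13.5, 35157 and 15149 with Wnt3a, and 16584 and 5325 with MS-275. Every adult library was above every E13.5 library. It was 3.99-fold higher in adult control than at E13.5 (log2 difference 2.04 ± 0.48, adjusted p = 0.00692) and was not called with MS-275 (adjusted p = 0.524). Of its exon bases, 21.3% overlap Syn3 on the opposite strand. No source used here says whether strand was used in counting, so reads of such overlaps cannot be assigned to 1 gene. Timp1, a broad inhibitor that binds membrane-type enzymes weakly, stood at 1085, 1144 and 552 in adult control, 2123, 586 and 588 at E13.5, 3209 and 648 with Wnt3a and 892 and 921 with MS-275, with groups that overlapped throughout. It was called in no comparison (adjusted p = 0.975 against E13.5 and 0.992 with MS-275).

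Timp4, the inhibitor with the narrowest tissue range, stood at 454, 406 and 375 at E13.5 and at 14.7, 20.3 and 23.7 in adult control. Every embryonic library was far above every adult one, and Timp4 was 21.0-fold lower in adult control (log2 difference -4.35 ± 0.49, adjusted p = 9.43e-05). It stood at 15.3 and 27.5 with Wnt3a and at 5.97 and 1.09 with MS-275, below all controls. The MS-275 difference was -2.41 ± 0.55 (adjusted p = 0.00895), or -3.27 without MS-275 1 and -1.54 without MS-275 2, where the call was lost (adjusted p = 0.0567), as it was in a fit of those groups alone (0.0586).

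Of the gelatinases, which cut denatured collagen and collagen IV of the basement membrane, Mmp2 stood at 3423, 1492 and 1578 at E13.5. In adult control it stood at 0, 0 and 131, with 1.39 and 127 in Wnt3a and 0 and 6.56 in MS-275 libraries. Within adult cells, only adult control 3 and Wnt3a 2 held more than a few reads, the pair that also stood together over all genes. Mmp2 was lower in adult control by a log2 difference of -8.62 ± 2.06 (adjusted p = 0.0075), which was -10.97 without adult control 3 and -7.45 without adult control 1 or 2. Mmp9 stood at 17.5, 27.7 and 16.2 at E13.5, at 1.73, 0 and 0 in control, at 0 and 2.39 with Wnt3a and at 6.82 and 17.5 with MS-275. It was lower in adult control than at E13.5 (adjusted p = 0.000827, or 0.66 under quantile normalisation) and higher with MS-275 (adjusted p = 0.00835), with 24 reads over both MS-275 libraries. The MS-275 log2 difference of Mmp9 was 3.10, or 3.72 without MS-275 1 and 2.48 without MS-275 2, where the call was lost (adjusted p = 0.0723). It was also lost under quantile normalisation (1.504, adjusted p = 0.196).

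The chromosome 9 cluster held genes that went up with MS-275 beside a neighbour that did not. Mmp13, the main interstitial collagenase of the mouse, stood at 1.73, 2.03 and 4.93 in adult control and 122.8 and 109 with MS-275, with 38.1, 15.6 and 36.3 at E13.5 and 30.6 and 4.78 with Wnt3a. Both MS-275 libraries were above all others. It was 40.03-fold higher with MS-275 (log2 difference 4.995 ± 0.75, adjusted p = 0.00126) and lower in adult control than at E13.5 (-2.98 ± 0.67, adjusted p = 0.00555), a direction that turned under quantile normalisation (0.46, adjusted p = 0.572).

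Mmp12, the macrophage elastase, had no read in any adult control library and stood at 17.1 and 37.2 with MS-275, 19.1, 41.6 and 26.7 at E13.5 and 1.39 and 3.58 with Wnt3a. The ranges of MS-275 and E13.5 libraries overlapped. It was at least 28.5-fold higher with MS-275 than in control (adjusted p = 0.000321) and at least 30.6-fold lower in adult control than at E13.5 (adjusted p = 2.96e-05). Microglia and macrophage markers summed to 505 to 542 at E13.5, 142 to 225 in control and 141 to 155 with MS-275. Of 8 tested, 6 were lower and 0 higher in control than at E13.5, and 0 were called with MS-275. C1qa, C1qc and P2ry12 had no read in control or MS-275 libraries, while Ptprc stood at 0.657 ± 1.14 in control and 8.77 ± 9.31 with MS-275 without overlap (adjusted p = 0.0618). Itgam and C1qb had no read in control and stood at 3.41 ± 4.83 and 1.09 ± 1.55 with MS-275, uncalled. Most of both sums was Csf1r, at 180 ± 62.4 in control and 121 ± 2.89 with MS-275. The part of such cells in either Mmp12 difference was not tested. Mmp1b, a mouse counterpart of human interstitial collagenase, had no read in control and stood at 21.3 and 14.2 with MS-275, 6.95 and 8.36 with Wnt3a and 13.51, 1.73 and 0 at E13.5. It was at least 18.7-fold higher with MS-275 (adjusted p = 0.00715), where 10.8% of its exon bases overlap those of Mmp12 on the opposite strand. Against E13.5, Mmp1b was not called by limma in all libraries (adjusted p = 0.105), and was called lower in adult control with DESeq2 (-4.86, adjusted p = 0.04) and without E13.5 3 (-2.655, adjusted p = 0.0161).

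Mmp3 (stromelysin-1), whose window before the start holds both motifs shown above, was the most abundant Mmp of the cluster in adult control. It stood at 1031, 1054 and 1365 there, at 556, 22.5 and 20.04 at E13.5, at 408 and 1350.2 with Wnt3a and at 154 and 56.8 with MS-275. Adult control libraries were above those of E13.5 and MS-275, and E13.5 1 stood far above the other embryonic libraries. Mmp3 was 5.76-fold higher in adult control than at E13.5 (log2 difference 4.13 ± 1.15, adjusted p = 0.0158). That difference was 5.68 without E13.5 1, and the call was lost on leaving out E13.5 2 (3.40, adjusted p = 0.0644) or, in turn, E13.5 3 (3.32, adjusted p = 0.0641) and under edgeR (adjusted p = 0.0884). With MS-275 it missed the threshold (adjusted p = 0.0537), and a fit of those groups alone (0.0172) or a pseudocount of 10 (0.0433) called it lower.

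Mmp10 (stromelysin-2), which also holds both motifs, stood at 23.4, 14.2 and 13.8 in control, 137, 22.5 and 16.2 at E13.5, 57.0 and 14.3 with Wnt3a and 90.4 and 67.8 with MS-275. It was not called with MS-275 (adjusted p = 0.089), although both MS-275 libraries lay above all controls, and a fit of those groups alone called it (adjusted p = 0.0306). Mmp8, Mmp27 and Mmp20 of the same cluster held at most 9.86 in any library, and Mmp7 held none. Mmp11 (stromelysin-3), which lies on chromosome 10, ran from 189 to 446 over all libraries and limma on all libraries called it in no comparison (adjusted p = 0.0561 against E13.5). DESeq2 (-0.69, adjusted p = 0.0235) and a fit of adult control and E13.5 alone (-0.69, adjusted p = 0.0309) called it lower in adult control.

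**Figure D4:**
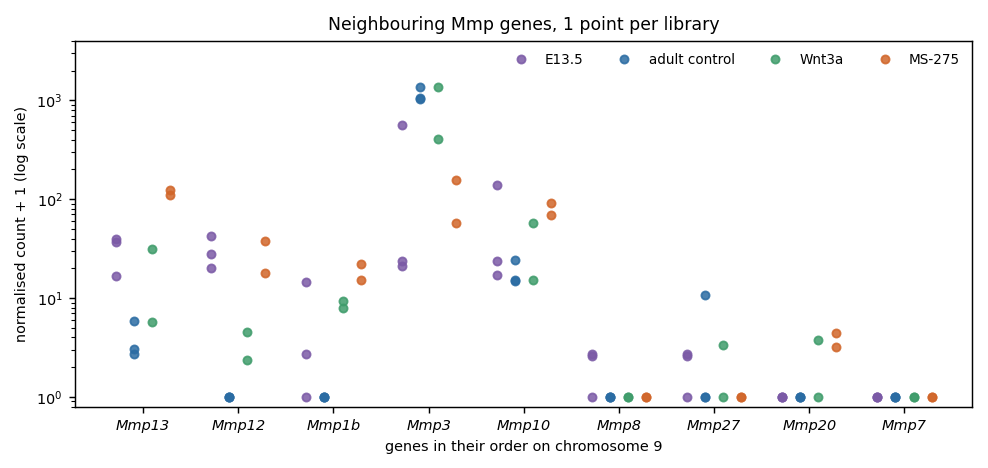
Normalised counts plus 1 on a log axis of the 9 neighbouring Mmp genes of chromosome 9, in their order along the chromosome, with 1 point per library coloured by group. The MS-275 points lie above the adult control points for Mmp13, Mmp12, Mmp1b, Mmp10 and the scarce Mmp20 and below them for Mmp3.

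All 5 tested membrane-type Mmp genes were called with MS-275, 2 higher and 3 lower, against 39.1% of all genes called (21.8% higher and 17.4% lower), and the call of Mmp16 rests on few reads. Mmp14, the main activator of Mmp2, stood at 2089, 2511 and 743 in adult control, 3964, 2235 and 2462 at E13.5, 1185 and 777 with Wnt3a, and 44.4 and 5.46 with MS-275. Adult and embryonic libraries overlapped, and both MS-275 libraries were far below them all. It was 71.5-fold lower with MS-275 than in control (log2 difference -6.52 ± 0.79, adjusted p = 0.000505), or -7.93 without MS-275 1 and -5.12 without MS-275 2. Against E13.5 it was not called (adjusted p = 0.365).

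Mmp15, a close relative of Mmp14, stood at 1240.5, 1364 and 832 in control, 844, 928 and 854 at E13.5, 208 and 893 with Wnt3a, and 91.3 and 59.0 with MS-275. Its embryonic level lay inside the control range, and its MS-275 level was 15.2-fold lower than control (log2 difference -3.91 ± 0.53, adjusted p = 0.000818). Mmp16 was found mainly in the E13.5 libraries, at 413, 221 and 212, with 1.73, 3.05 and 1.97 in control and 0 and 2.39 in Wnt3a libraries. It was 125-fold lower in adult control (log2 difference -6.39 ± 0.52, adjusted p = 1.07e-05). With MS-275 it had no read, and its fall (adjusted p = 0.046) rests on the 7 reads of the controls, with a bound of at least 1.57-fold. This call was lost with DESeq2 (adjusted p = 0.0598), no filter (0.0653) and a pseudocount of 10 (0.48), and when any 1 library of either group was left out (adjusted p from 0.0648 to 0.145).

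Mmp24, a membrane-type enzyme best known from neurons, stood at 664, 723 and 596 in control, 242, 197 and 203 at E13.5, 1184 and 714 with Wnt3a, and 1494 and 1235 with MS-275. Its levels were ordered from E13.5 over control to MS-275 with no overlap. It was 3.09-fold higher in adult control than at E13.5 (log2 difference 1.62 ± 0.22, adjusted p = 0.000324) and 2.06-fold higher with MS-275 than in control (1.04 ± 0.25, adjusted p = 0.011, or 0.0603 without MS-275 1). Of its exon bases, 13.6% overlap BC029722 on the opposite strand. Mmp17, anchored to the membrane by a lipid, stood at 12.1, 12.2 and 8.87 in control, 174, 101.4 and 136 at E13.5, 8.34 and 19.1 with Wnt3a, and 366 and 618 with MS-275. It was 44.4-fold higher with MS-275 (log2 difference 5.32 ± 0.47, adjusted p = 0.000158), the largest rise of the 34 on the log2 scale, and 12.4-fold lower in adult control than at E13.5 (-3.50 ± 0.42, adjusted p = 0.000137).

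Among the other Mmp genes, Mmp28 (epilysin) stood at 44.2, 49.8 and 94.7 in control, 296, 285 and 358 at E13.5, 83.4 and 71.6 with Wnt3a and 189 and 159.6 with MS-275. It was 4.98-fold lower in adult control than at E13.5 (log2 difference -2.37 ± 0.34, adjusted p = 0.000405) and 2.77-fold higher with MS-275 (1.53 ± 0.38, adjusted p = 0.0124), which was lost without MS-275 1 (adjusted p = 0.056) and in a fit of those groups alone (0.0851). Mmp23, a membrane-linked enzyme without the usual cysteine switch, stood at 364, 164 and 107 at E13.5 and 0, 0 and 1.97 in control (adjusted p = 2.39e-05). With MS-275 it stood at 10.2 and 4.37, and with Wnt3a at 5.56 and 2.39. Its MS-275 call (adjusted p = 0.0264) rests on 16 reads and was lost under a pseudocount of 10 (0.25), quantile normalisation (0.474), a fit of those groups alone (0.0681) and without adult control 1 or 2 or either MS-275 library (from 0.0523 to 0.142). Mmp19, a secreted enzyme found in many tissues, stood at 959, 993 and 459 in control, 779, 252 and 219 at E13.5, 715 and 487 with Wnt3a and 557 and 165 with MS-275, with wide overlap. It was not called by limma against E13.5 (log2 difference 1.11, adjusted p = 0.158) or with MS-275 (0.152), but without E13.5 1 it was called higher in adult control (1.69, adjusted p = 0.0452). Of Mmp19, 22.3% of the exon bases overlap Tmem198b on the opposite strand.

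Per kb of exon, the make-up of each family differed between groups more than within them for several members. Adamts1 made up 70.8% of the summed ADAMTS level in adult control (69.1% to 73.6%), 65.2% at E13.5 (64.5% to 65.7%) and 35.8% with MS-275 (21.6% and 50.03%). Mmp3 led the Mmp family in adult control (39.5%), Mmp2 (31.6%) and Mmp14 (25.0%) led it at E13.5, and Mmp24 (37.1%) led it with MS-275. Timp2 led the TIMPs in every library, from 55.2% in MS-275 2 to 91.7% in MS-275 1. The summed TIMP level over the summed protease level, per kb, was 0.778, 0.756 and 0.804 in adult control, 1.52, 0.955 and 0.960 at E13.5 and 2.84 and 0.801 with Wnt3a. With MS-275 this ratio was 29.2 and 4.07, both above every other library, while the TIMP sum itself was above the control range in MS-275 1 and below it in MS-275 2. Over the Mmp sum alone, the TIMP ratio was 40.1 and 5.60 with MS-275 and 6.52, 6.34 and 7.35 in control. MS-275 2 thus lay below every control on that ratio. Over the ADAMTS sum alone it was 107 and 14.8 with MS-275 and 0.884, 0.859 and 0.903 in control. The ADAMTS sum per kb was 341 and 255 with MS-275 and 11756 to 13421 in control.

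**Figure D5:**
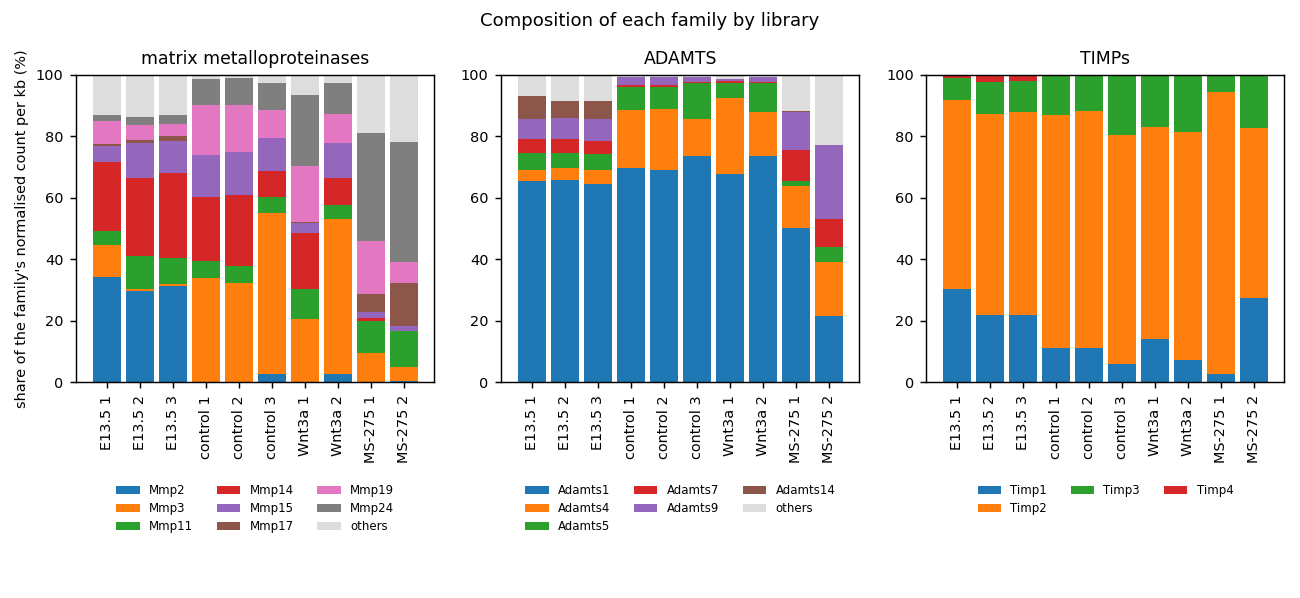
Share of each gene in the summed normalised count per kb of exon of its family (%), as stacked bars for each of the 10 libraries, for the Mmp (left), ADAMTS (middle) and TIMP (right) families. Adamts1 fills 69.1% to 73.6% of the ADAMTS bars of adult control and 21.6% and 50.03% of those of MS-275, and Mmp24 fills the largest share of the MS-275 bars of the Mmp family.

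Genes that activate or restrain these proteases went both ways. Of 14 tested activators and membrane regulators, 4 were higher and 6 lower in adult control than at E13.5, and 6 were higher and 2 lower with MS-275 than in control, beside the all-gene shares given above. Furin, which activates membrane-type and other proteases, stood at 10544 ± 1398 in control, 3042 ± 282 at E13.5 (adjusted p = 0.0017) and 1129 ± 525 with MS-275 (adjusted p = 0.000335). Plat, the tissue plasminogen activator, stood at 293 ± 46.4 in control, 1765 ± 144 at E13.5 (adjusted p = 0.000309) and 12910 ± 3385 with MS-275 (adjusted p = 7.39e-05). Reck, a membrane protein that restrains Mmp enzymes and serves Wnt7 signalling at the BBB, was higher with MS-275 (695.5 ± 103 against 191 ± 102, adjusted p = 0.00555).

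Of 8 tested membrane ADAM sheddases, 3 were higher and 2 lower in adult control than at E13.5, and 2 were higher and 1 lower with MS-275. The called share with MS-275 (37.5%) was near that of all genes (39.1%). For this list and those below, the all-gene shares were 17.9% higher and 31.2% lower in adult control than at E13.5. With MS-275 they were 21.8% higher and 17.4% lower. Adam19 stood at 4631 ± 549.9 in control, 1025 ± 376 at E13.5 (adjusted p = 0.000308) and 219 ± 76.9 with MS-275 (adjusted p = 9.66e-05). Of 6 tested ADAMTS-like proteins, which lack a protease domain, 5 were lower and 0 higher in adult control, and 1 (Thsd4) was higher with MS-275. The lecticans, proteoglycans that Adamts1, Adamts4 and Adamts5 cut, were lower in adult control for 3 of 3 tested, with Vcan at 170.3 ± 144 against 16103 ± 1462 at E13.5 (adjusted p = 0.0156). Bcan stood at 5.17 ± 1.84 against 2254 ± 452 (adjusted p = 4.48e-05), and Ncan had no read in control. Bcan and Ncan are known to be made by neural cells. In adult control, markers of neurons and their progenitors were lower for 10 of 10, and those of astrocytes and radial glia for 8 of 8. Markers of pericytes and smooth muscle (8 of 8) and of fibroblasts (8 of 9) were lower as well. The part of any of these cells in the lectican differences was not tested.

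With Wnt3a, the library Wnt3a 2 lay near adult control 3 for Mmp2 (127 and 131), Mmp3 (1350.2 and 1365) and Mmp14 (777 and 743), and Wnt3a 1 stood apart. Mmp15 stood at 208 in Wnt3a 1 and 893 in Wnt3a 2, Adamts9 at 824 and 2517, and Timp1 at 3209 and 648. When adult control 3 and Wnt3a 2 were both left out, a setting chosen after the data were seen that leaves 1 Wnt3a library against 2 controls, 3 of the genes were called. These were Mmp13 (log2 difference 3.45, adjusted p = 0.037), Mmp15 (-2.64, adjusted p = 0.0115) and Adamts9 (-2.63, adjusted p = 0.0104), with 714 calls over all genes. The lone library is assumed there to vary like the other groups. Without Wnt3a 2 alone, Mmp15 was called (-2.42, adjusted p = 0.0482), with 74 calls over all genes. Without adult control 3 alone, 579 of all genes and none of the 34 were called.

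The 11 genes that did not pass the filter were Mmp7, Mmp8, Mmp20, Mmp21, Mmp25, Mmp27, Adamts13, Adamts16, Adamts18, Adamts19 and Adamts20. Their highest level in any library was 14.5, of Adamts16 in MS-275 1, a gene with 24 reads over both MS-275 libraries and 2 over the 3 controls. Adamts13, the protease of von Willebrand factor, held at most 3.97. At this depth, a count of 3 reads corresponds to a normalised count of 2.38 to 4.17 in a library, the level that a library with no read still allows.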

How the data were processed

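The authors aligned paired-end reads to mm10 with STAR and counted them on protein-coding genes. FastQC, cutadapt, featureCounts and DESeq2 are also named in the submitters' processing notes, and no source used here gives their versions. The deposited signal is linear and holds gene counts after the authors' division by library size factors. Scaling each column back by its size factor (0.720 to 1.26) returned whole reads for 100% of values, to within 0.01. All 10 columns were used, and 26 lines with a date in place of a symbol were left out (0.21% to 0.281% of a library).

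Genes at 10 or more in at least 2 libraries were tested with limma 3.58.1 (R 4.3.3, intensity trend) on log2(normalised count + 1), with 1 model for the 10 libraries and p-values adjusted by Benjamini-Hochberg over 15211 genes. The added 1 shrinks the log2 differences of scarce genes. The script was tested on simulated data. edgeR 4.0.16 and DESeq2 1.42.0 on the recovered reads were alternatives, since the deposited values are already normalised, as were other pseudocounts, filters and scalings, a fit of the compared groups alone, a replicate block and leaving out each library. The members, gene lists and tests were chosen with earlier results of these data known. Every member is named at least once; values in every library are given for members with a group mean of at least 500 or called with MS-275 or Wnt3a, and up to 4 genes of each other list. Results for 2 other genes are not reported here. Lengths per kb and positions are unions of GENCODE exons on mm10. Where a group had no read, a fold is a bound against 3 reads over the group, a limit of counting alone, as PCR copies are not separate molecules.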

Additional observations from a re-analysis of the deposited data

How the results depend on the processing

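Of the 22 genes called between adult control and E13.5, 12 were called under every alternative listed in the methods, as were 9 of the 18 called with MS-275. Another 3 (Adamts2, Mmp12 and Mmp2) and 2 (Mmp12 and Mmp1b) were called in all that tested them. Counts of called genes ran from 16 to 24 and from 14 to 19. Leaving out 1 library at a time gave 19 to 22, 14 to 19 and, for Wnt3a, 0 to 1. For Wnt3a, a fit of the compared groups alone called 1 gene (Mmp1b), and leaving out adult control 3 and Wnt3a 2 together, an alternative added after seeing the data, called 3. Quantile normalisation turned the sign of Mmp13 (0.46) and of the uncalled Mmp1b (0.47) between adult control and E13.5 and of Adamts8 with MS-275 (-0.22), which was called only without MS-275 2 (1.44, adjusted p = 0.0449). Timp2 with MS-275, -0.00 in all libraries, was positive with edgeR (1.05) and DESeq2 (1.09) and ran from -2.01 to 2.00 when 1 library was left out. The cause of these changes was not tested. Over all genes, the compared groups alone gave 3855 calls with MS-275 and leaving out MS-275 2 gave 3663, against 5955, and for Wnt3a the groups alone gave 25 against 0. DESeq2 gave no adjusted p for Mmp2 and Mmp3 between adult control and E13.5.

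Replicate numbers are shared between groups. Deviations of same-numbered libraries from their group means correlated at 0.066, -0.003 and 0.019 between adult control and E13.5. For adult control they correlated at 0.448 and -0.452 with Wnt3a and at 0.312 and -0.258 with MS-275. In a group of 2 libraries, deviations from the mean are exact opposites, and adult control 1 and 2 correlated at 0.993. The opposite signs with Wnt3a and MS-275 largely follow from this, so they cannot decide whether the numbers are pairs. Pairs outside the comparisons ran from 0.012 to 0.396. The methods name no pairing, and the numbers were not taken as pairs. With the number as a replicate block, 23, 19 and 0 genes were called in the 3 comparisons: Mmp19 gained a call against E13.5 (adjusted p = 0.0407) and with MS-275 (0.0216), Adamts17 gained one with MS-275 (0.00867) and Mmp16 lost its call (0.0656). Depth limits the scarce genes most, and Mmp16, Mmp23 and Adamts17, called at few reads, were each lost under several alternatives.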
